A study of Mus musculus with 8 samples.

Results

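Intraflagellar transport (IFT) and BBSome genes were followed in RNA from adult mouse testis, in 4 libraries labelled Kpna2 knockout (genotype Kpna2-/-) and 4 labelled wild type (WT). Of the 24988 rows of the gene table, 39 were members: 23 carried a symbol that begins with Ift or Bbs and a digit, and 16 had one of a list of other symbols of the same complexes, such as Ttc21a, Wdr19, Dync2h1 and Arl6. Of these, 38 were protein-coding genes and 1 was Ift88os, an antisense RNA gene at the Ift88 locus. Kpna2 encodes an importin alpha, an adaptor for the import of proteins into the nucleus, and the study asked what its loss does to testis gene expression in infertile males. The sources used here do not give strain, age in weeks, the design of the deleted allele or how many animals stand behind a library. The p-values below therefore measure the spread between libraries, which may be technical.

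Intraflagellar transport moves building material along the microtubules of a growing cilium or flagellum. Trains made of the IFT-B complex travel outwards on kinesin-2, and trains with the IFT-A complex return on the motor dynein-2. The BBSome, a coat-like complex recruited by the small GTPase Arl6, rides on these trains and carries membrane proteins. In the testis the same machinery serves the spermatid, which builds the sperm flagellum and moves cargo along the manchette around its nucleus. In mice, loss of Ift20, Ift140 or Ift172 in male germ cells disturbs flagellum formation, and mice that lack Bbs2 or Bbs4 are sterile males with sperm that lack flagella.

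The libraries held 31133443 to 37797812 reads. Levels are given in CPM as named by the authors, which are read counts scaled by a factor for each library. The columns did not sum to the same total (990244 to 1025489). The targeted gene went against the labels: Kpna2 stood at 15.3, 20.2, 19.4 and 21.7 CPM in the libraries labelled knockout, against 13.97, 15.1, 14.04 and 12.4 CPM in those labelled wild type. The groups did not overlap, with the higher values under the knockout label (exact two-sided permutation test, p = 0.029, the lowest possible with 70 assignments), and gene totals cannot tell which exons were read. Every direction below is therefore that of the libraries labelled knockout. The 10 markers of elongating spermatids, the protamines Prm1 and Prm2 among them, summed to 23241 to 29664 CPM in the libraries labelled knockout and 26116 to 27589 CPM in those labelled wild type, so germ cells that build flagella were represented in both groups. In whole tissue, fewer cells of a type and less RNA per cell cannot be told apart.

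Of the 38 protein-coding members, 1 rose and none fell in the libraries labelled knockout. The riser was Ttc21a, an IFT-A subunit. The call is limma's test over 22027 genes at an adjusted p under 0.05 (Benjamini-Hochberg), which called 16.9% of all genes tested (8.62% higher and 8.32% lower), and 17.3% of the 13415 genes at least as high as the lowest member. The edgeR and DESeq2 tests on recovered reads also called 1 member each, again Ttc21a, against 16.8% and 18.1% of all genes. An unadjusted p under 0.05 was reached by 7 members, against 30.2% of all genes. The 38 differences (log2 of CPM + 0.5, labelled knockout minus labelled wild type) ranged from -0.34 to 0.29, with 17 above 0 and 21 below. Their median size was 0.06, and it was 0.13 over all genes tested.

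The few calls came with narrow intervals. The median SE of the members' log2 fold changes was 0.06, against 0.10 over all genes tested, and the members were also more abundant, with a median of 69.8 CPM against 9.17 CPM. For 34 of the 38 members (89.5%) the 95% interval of the difference lay inside a change of 25% (a 25% rise, or the same fold downwards), and this held for 41.9% of all genes. It lay inside a 1.5-fold change for 37 of the 38, the exception being Bbs12. The group means of 32 members differed by less than 10%, and those of 23 by less than 5%. Bbs2, a BBSome subunit, gave the closest replicates under the knockout label, at 39.8, 39.9, 40.7 and 40.2 CPM, against 39.4, 41.4, 39.9 and 40.3 CPM under the wild-type label. Its groups overlapped, and its interval ran from -0.11 to 0.10 on the log2 scale. Ift88os, with 108 reads over all libraries, was below the filter of 0.5 CPM and was not tested; it averaged 0.408 CPM in the libraries labelled knockout and 0.389 CPM in those labelled wild type.

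**Figure D1:**
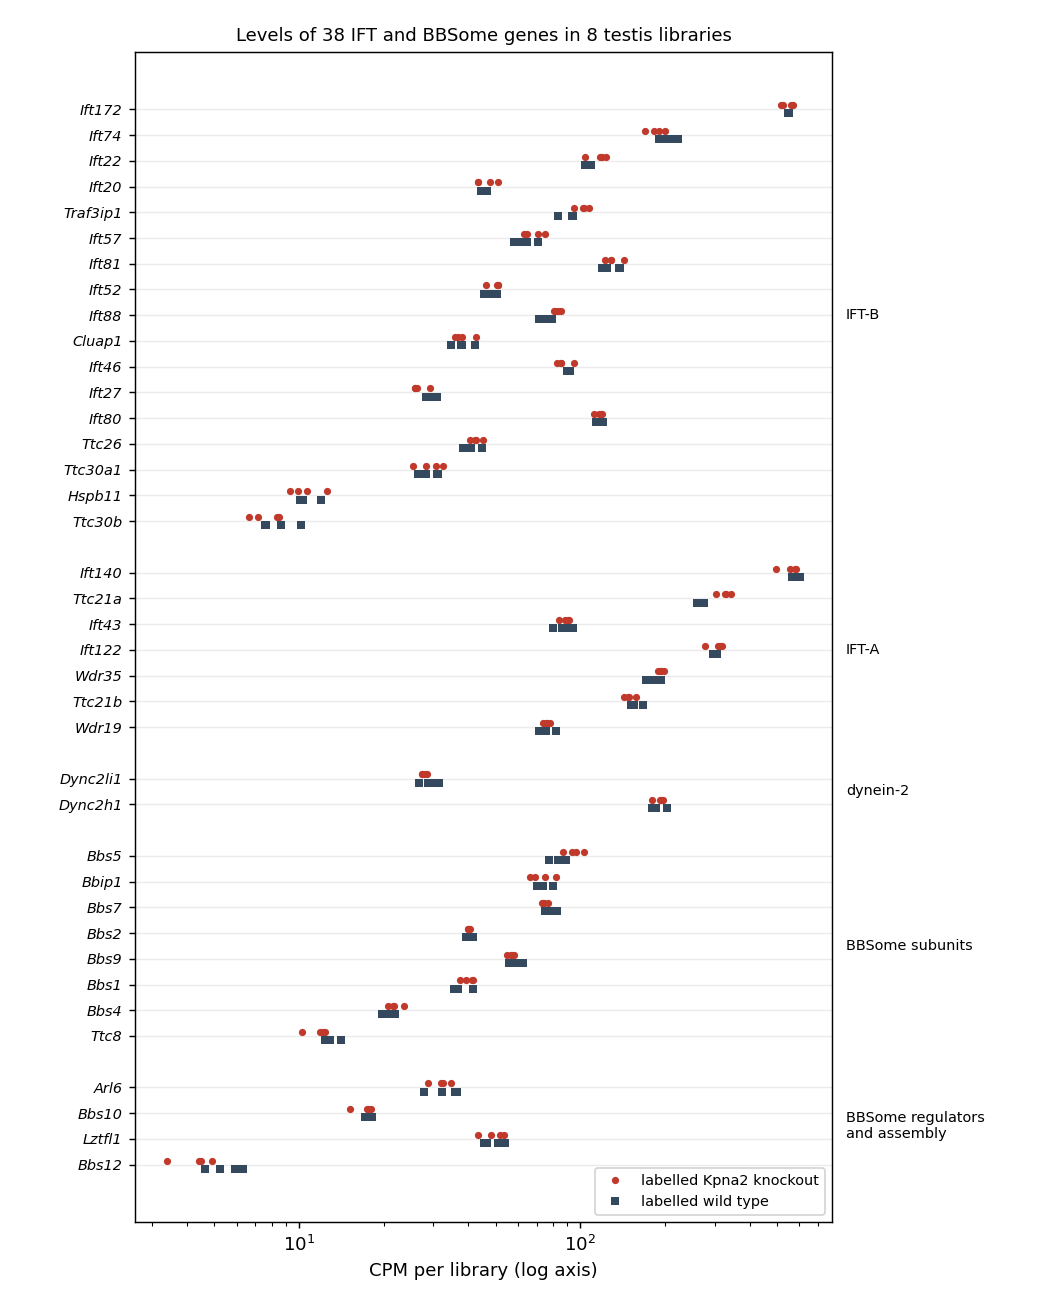
Level of each of the 38 protein-coding members in CPM (log axis) in every library, with red circles for the 4 libraries labelled knockout above dark squares for the 4 labelled wild type, grouped by complex and ordered by level per kilobase. The groups overlap for all but 4 members, namely Ttc21a, Traf3ip1, Ift88 and Ttc8. Over all genes tested, the groups did not overlap for 20.9%.

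**Figure D2:**
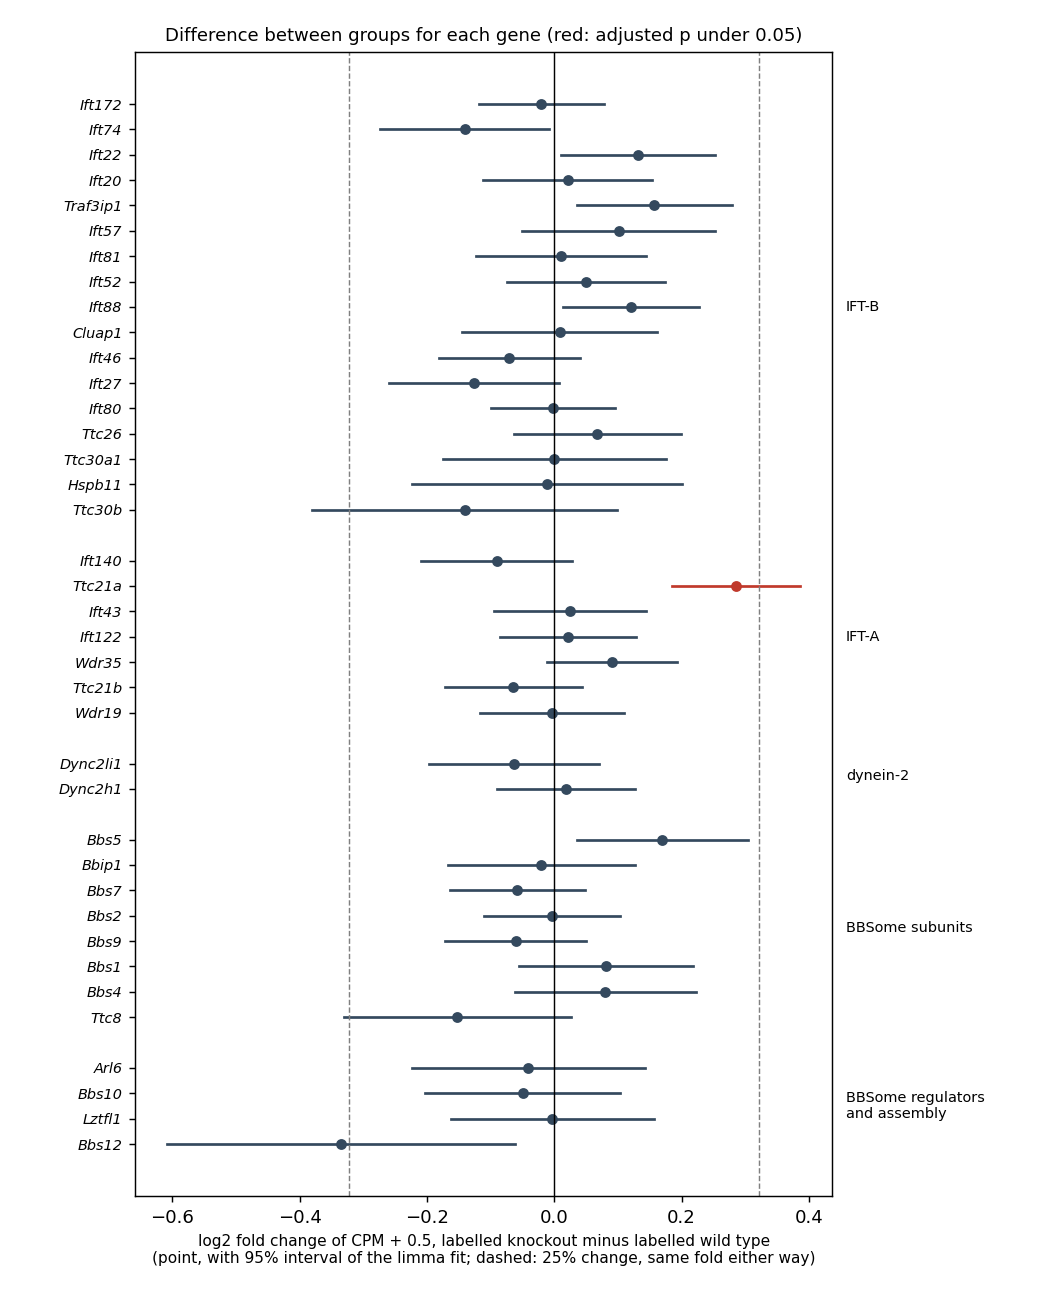
Log2 fold change of each member (log2 of CPM + 0.5, labelled knockout minus labelled wild type) as a point with its 95% interval from limma, with dashed lines at a 25% change (the same fold either way). Ttc21a, in red, is the member called; the interval of Bbs12 is the widest, from -0.61 to -0.06.

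The IFT-A complex, the retrograde adaptor that also brings membrane receptors into cilia, had 7 members. Ttc21a (ENSMUSG00000032514; chromosome 9, 119937606 to 119967793, plus strand, GRCm38), whose variants in men are known to go with malformed sperm flagella, stood at 344, 305, 329 and 326 CPM in the libraries labelled knockout, against 274, 266, 268 and 259.7 CPM in those labelled wild type. The lowest library labelled knockout lay above the highest labelled wild type, without overlap. The means were 326 ± 16.1 and 267 ± 6.004 CPM (SD, n = 4 each), 22.0% higher (log2 fold change 0.29, SE 0.05, limma adjusted p = 0.00086). The call rested on at least 10190 reads in each library labelled knockout, and Ttc21a was called in all 19 alternative settings, with adjusted p from 3.3e-07 to 0.013.

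Ttc21b, the paralogue of Ttc21a that serves the same place in the IFT-A complex of primary cilia, stood at 158, 143, 148 and 149.5 CPM in the libraries labelled knockout, against 155, 152, 168 and 152 CPM in those labelled wild type. The groups overlapped, with a difference of -0.06 ± 0.05 (log2, ± SE; limma adjusted p = 0.42, interval -0.17 to 0.04). The log2 ratio of Ttc21a to Ttc21b within a library does not depend on scaling, and was 1.12, 1.09, 1.15 and 1.12 in the libraries labelled knockout, against 0.82, 0.81, 0.68 and 0.77 in those labelled wild type. It differed by 0.35 between the groups. The ratio was chosen after Ttc21a had been called, so it restates that difference without scaling and gets no test. The balance between the 2 paralogues thus lay further towards Ttc21a in every library labelled knockout. The ratios to the other 5 IFT-A genes share the same numerator, and likewise did not overlap between the groups, as for Ift122, at 1.03 to 1.11 in the libraries labelled knockout and 0.858 to 0.905 in those labelled wild type.

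The promoter windows of the paralogues, 250 bases before to 50 after the gene start (RefSeq, GRCm38.p6), are shown because these related genes behaved differently here; capitals mark the letters GTTGCC, a half-site of the X-box bound by RFX factors, which are known regulators of ciliary genes and include the spermatid factor Rfx2. The first is at chr9:119937356-119937655 on the plus strand and the second at chr2:66256568-66256867 on the minus strand.
Ttc21a: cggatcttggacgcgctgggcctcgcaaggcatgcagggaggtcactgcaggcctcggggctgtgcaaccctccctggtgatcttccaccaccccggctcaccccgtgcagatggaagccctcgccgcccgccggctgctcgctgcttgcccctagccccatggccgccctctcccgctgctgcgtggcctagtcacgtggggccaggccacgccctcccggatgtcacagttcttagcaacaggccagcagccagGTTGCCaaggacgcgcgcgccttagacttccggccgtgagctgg
Ttc21b: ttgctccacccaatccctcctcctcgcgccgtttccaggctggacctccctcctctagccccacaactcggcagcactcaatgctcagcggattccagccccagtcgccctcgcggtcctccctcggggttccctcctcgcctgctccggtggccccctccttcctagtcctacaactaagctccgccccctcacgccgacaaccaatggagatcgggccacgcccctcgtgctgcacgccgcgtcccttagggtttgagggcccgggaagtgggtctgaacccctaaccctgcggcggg
The Ttc21a window held 1 half-site, beginning 6 bases after the gene start, and the Ttc21b window held none on either strand. Searched on both strands, the 6 letters occurred in 14 of the 33 members with a promoter entry (42.4%), against 14.1% of 27025 genes with one. The 14 were Bbs1, Bbs5, Bbs7, Dync2h1, Ift140, Ift172, Ift27, Ift57, Ift88, Lztfl1, Traf3ip1, Ttc21a, Ttc26 and Wdr35, of which Ttc21a alone was called. Among the 14, the log2 fold change was below 0 for Ift27 (-0.13), Ift140 (-0.09), Bbs7 (-0.06), Ift172 (-0.02) and Lztfl1 (-0.0029). It was above 0 for the others. The longer form with both arms, GTTGCC followed by NN and then GGNAAC, occurred in Bbs7 and Ttc26, against 0.355% of all genes; it overlaps the half-site. A match is a run of letters, not a site shown to be bound, and a link to the rise of Ttc21a was not tested. Stretches around the first half-site follow for the members with both arms (Bbs7, chr3:36613485-36613530, minus strand, and Ttc26, chr6:38381471-38381516, plus strand) and for the members nearest to a call upwards (Traf3ip1, chr1:91494569-91494614, and Bbs5, chr2:69647193-69647220, both on the plus strand).
Bbs7: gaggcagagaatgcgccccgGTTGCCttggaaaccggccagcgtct
Ttc26: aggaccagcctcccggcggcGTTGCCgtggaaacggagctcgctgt
Traf3ip1: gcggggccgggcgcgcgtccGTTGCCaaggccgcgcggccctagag
Bbs5: tgtcgtgacaaagccggcgcGTTGCCtt
Rfx2 itself stood at 425, 385, 445 and 427 CPM in the libraries labelled knockout, against 419, 410.3, 391 and 407 CPM in those labelled wild type, and was not called (limma adjusted p = 0.59).

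Genes around Ttc21a were called in both directions, at shares near those of the whole table. Within 1 Mb on each side in GRCm38, 4 of 40 other genes tested were called higher and 4 lower. Over all genes, 16.9% were called, 8.62% higher and 8.32% lower. Among them, Rpsa, a protein of the small ribosomal subunit, averaged 29.8 CPM in the libraries labelled knockout and 19.0 CPM in those labelled wild type. Cx3cr1, a chemokine receptor gene on the other strand whose span includes Ttc21a, averaged 2.87 CPM in the libraries labelled knockout and 4.28 CPM in those labelled wild type; the annotation gives no exon base shared by the 2 genes.

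**Figure D3:**
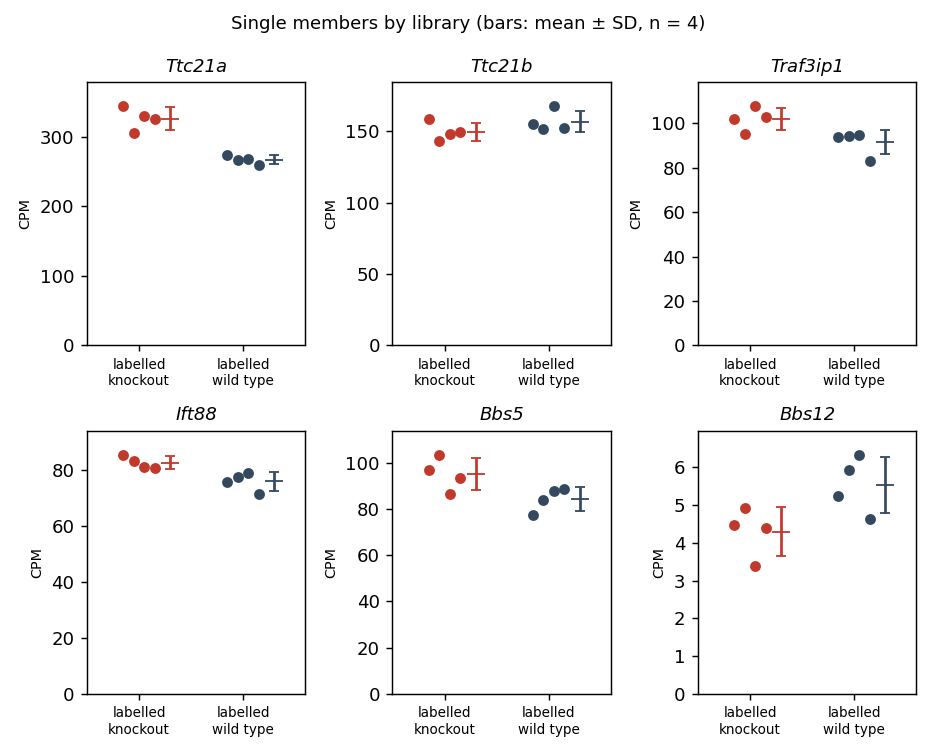
CPM of 6 members in each library (points), with the mean ± SD of the 4 libraries per group as bars, libraries labelled knockout on the left and labelled wild type on the right, and axes from 0. Ttc21a separates at 305 to 344 CPM in the libraries labelled knockout, against 259.7 to 274 CPM in those labelled wild type, while Ttc21b, Bbs5 and Bbs12 overlap between the groups.

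The other 5 IFT-A genes did not pass the test. Ift140, a core subunit with the highest level of this complex per kilobase of exon, stood at 555, 498, 585 and 581 CPM in the libraries labelled knockout, against 606, 583, 605 and 567 CPM in those labelled wild type. The library labelled knockout replicate 2 was the lowest, the groups overlapped, and the limma adjusted p was 0.30. Wdr35, another subunit of the complex, was at 193.5 ± 4.24 CPM in the libraries labelled knockout and 182 ± 9.24 CPM in those labelled wild type (limma adjusted p = 0.22). Ift122, Ift43 and Wdr19 had log2 fold changes of 0.02, 0.02 and -0.0029. Per kilobase of exon (union of exons in GENCODE M21), Ift140 averaged 66.6 ± 4.79 CPM in the libraries labelled knockout and 70.8 ± 2.26 CPM in those labelled wild type. Wdr19, the lowest, averaged 6.71 ± 0.150 CPM per kilobase in the libraries labelled knockout and 6.73 ± 0.400 in those labelled wild type. Between these, Ttc21a averaged 60.5 ± 2.98 CPM per kilobase in the libraries labelled knockout and 49.6 ± 1.11 in those labelled wild type, and Ttc21b 16.1 ± 0.674 in the libraries labelled knockout and 16.9 ± 0.798 in those labelled wild type.

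None of the 17 members of the IFT-B complex, the anterograde part of the train, was called by limma, edgeR or DESeq2. Of these members 4 reached an unadjusted p under 0.05, against 30.2% of all genes. Traf3ip1, a subunit that links the complex to microtubules, came nearest, at 102, 95.3, 108 and 103 CPM in the libraries labelled knockout, against 93.8, 94.3, 94.6 and 83.3 CPM in those labelled wild type. The groups did not overlap, which was so for 4 members and for 20.9% of all genes tested. The difference was 0.16 ± 0.06 (log2, ± SE; limma adjusted p = 0.073), and the adjusted p over the 19 alternatives ran from 0.039 (without knockout replicate 2) to 0.19 (without wild-type replicate 4). Ift88, a core subunit needed for flagella and cilia, stood at 85.6, 83.3, 81.0 and 80.7 CPM in the libraries labelled knockout, against 75.9, 77.7, 79.1 and 71.3 CPM in those labelled wild type. The groups again did not overlap, with a difference of 0.12 ± 0.05 (log2, ± SE; limma adjusted p = 0.12). Ift88 shares 67 exon bases with Ift88os on the opposite strand, and the strand setting of the counting is not stated. Ift88os averaged 0.408 CPM in the libraries labelled knockout and 0.389 CPM in those labelled wild type. Ift22, a small GTPase of the complex, was at 104, 119.6, 117 and 123 CPM in the libraries labelled knockout, against 109, 104, 104 and 105 CPM in those labelled wild type. Knockout replicate 1 lay within the wild-type range and the other 3 above it; the limma adjusted p was 0.13, and over the alternatives ran from 0.019 (without that library) to 0.31 (without knockout replicate 4).

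Ift74, which forms with Ift81 a module that binds tubulin, pointed the other way. It stood at 182, 201, 170.03 and 191 CPM in the libraries labelled knockout, against 197, 211, 223 and 189.9 CPM in those labelled wild type. The groups overlapped, with a difference of -0.14 ± 0.06 (log2, ± SE; limma adjusted p = 0.14). Ift81 averaged 131 ± 8.78 CPM in the libraries labelled knockout and 129.6 ± 9.35 CPM in those labelled wild type, with a log2 fold change of 0.01. Ift27, a small GTPase that links the trains to the BBSome, averaged 26.8 ± 1.59 CPM in the libraries labelled knockout and 29.2 ± 1.15 CPM in those labelled wild type (limma adjusted p = 0.19). Hspb11, its partner in the complex, averaged 10.6 ± 1.41 CPM in the libraries labelled knockout and 10.6 ± 0.860 CPM in those labelled wild type.

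Levels of IFT-B genes spanned a wide range. Ift172, the largest IFT-B subunit, was the highest per kilobase, at 82.0 ± 4.01 CPM per kilobase in the libraries labelled knockout and 83.1 ± 0.444 in those labelled wild type. Its CPM was 516, 524, 562 and 569 in the libraries labelled knockout, against 549, 554, 549 and 547 in those labelled wild type, so that the libraries labelled knockout lay both below and above a narrow wild-type range (limma adjusted p = 0.81). Ttc30b was the lowest, at 2.80 ± 0.323 CPM per kilobase in the libraries labelled knockout and 3.11 ± 0.435 in those labelled wild type. It is a close copy of Ttc30a1, and the values of both are uncertain, since the sources used here do not say how multi-mapping reads were counted. Ttc30a1 stood at 29.2 ± 3.12 CPM in the libraries labelled knockout and 29.2 ± 2.26 CPM in those labelled wild type. For the remaining 7 IFT-B members (Cluap1, Ift20, Ift46, Ift52, Ift57, Ift80 and Ttc26) the limma adjusted p ran from 0.37 to 0.98 and the log2 fold change from -0.07 to 0.10.

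Dynein-2, the motor of the return journey, had 2 members. Its heavy chain Dync2h1 stood at 197, 180.4, 192 and 194 CPM in the libraries labelled knockout, against 185, 179.6, 203 and 186 CPM in those labelled wild type (log2 fold change 0.02, limma adjusted p = 0.84). Its light intermediate chain Dync2li1 averaged 27.8 ± 0.564 CPM in the libraries labelled knockout and 29.1 ± 1.98 CPM in those labelled wild type (adjusted p = 0.54 by limma). Neither differed beyond the spread between libraries. The interval of Dync2h1 ran from -0.09 to 0.13 and that of Dync2li1 from -0.20 to 0.07.

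Of the 8 BBSome subunits, limma, edgeR and DESeq2 each called none. Against 30.2% of all genes, 1 subunit reached an unadjusted p under 0.05. This was Bbs5, a subunit that binds membrane lipids, with the largest upward difference that was not called: 96.9, 103, 86.5 and 93.4 CPM in the libraries labelled knockout, against 77.5, 83.6, 87.6 and 88.8 CPM in those labelled wild type. Knockout replicate 3 lay inside the wild-type range and the other 3 above it. The difference was 0.17 ± 0.06 (log2, ± SE; limma adjusted p = 0.079, and over the alternatives from 0.034 without knockout replicate 3 to 0.22 without wild-type replicate 1). Ttc8, a subunit built of helical repeats, stood at 12.2, 11.9, 10.2 and 12.37 CPM in the libraries labelled knockout, against 12.37, 12.9, 12.6 and 14.2 CPM in those labelled wild type. Its highest library labelled knockout lay just under the lowest labelled wild type, with a log2 fold change of -0.15 and an SE of 0.08 (limma adjusted p = 0.24). Per kilobase Bbs5 was also the highest subunit, at 38.9 ± 2.88 CPM per kilobase in the libraries labelled knockout and 34.5 ± 2.09 in those labelled wild type, while Ttc8 was lowest over all libraries, at 3.09 ± 0.259 in the libraries labelled knockout and 3.44 ± 0.210 in those labelled wild type. Bbs4 was at 3.63 ± 0.204 CPM per kilobase in the libraries labelled knockout and 3.42 ± 0.159 in those labelled wild type, where it lay level with Ttc8. The other 6 (Bbip1, Bbs1, Bbs2, Bbs4, Bbs7 and Bbs9) had log2 fold changes from -0.06 to 0.08.

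The 4 genes that recruit, regulate or assemble the BBSome had log2 fold changes of -0.34 to -0.0029, a sign that held in every alternative for Bbs12 alone. Lztfl1 turned positive with median ratio scaling (0.0024), with library weights (0.0089) and without any 1 of 4 libraries (up to 0.055), Arl6 without any 1 of 3 libraries (up to 0.0086) and Bbs10 without knockout replicate 1 (0.0041). The 3 tools limma, edgeR and DESeq2 called none of them. Bbs12, a chaperonin-like gene of BBSome assembly, showed the largest downward difference that was not called. Bbs12 alone of the 4 had an unadjusted p under 0.05, against 30.2% of all genes. It stood at 4.47, 4.92, 3.39 and 4.39 CPM in the libraries labelled knockout, against 5.25, 5.92, 6.34 and 4.64 CPM in those labelled wild type. Knockout replicate 2 lay above wild-type replicate 4, so the groups overlapped, and the log2 fold change of -0.34 had an SE of 0.13 (limma adjusted p = 0.089). Bbs12 also shares exon bases with Gm43439 and Cetn4 (32 with each). With as few as 105 reads in a library labelled knockout, it was also the lowest member, at 1.76 ± 0.265 CPM per kilobase in the libraries labelled knockout and 2.27 ± 0.307 in those labelled wild type. Arl6, the GTPase that recruits the BBSome to membranes and the highest of these 4 per kilobase, averaged 32.0 ± 2.46 CPM in the libraries labelled knockout and 33.0 ± 3.93 CPM in those labelled wild type. Lztfl1, which holds the BBSome back from cilia, averaged 49.3 ± 4.45 CPM in the libraries labelled knockout and 49.3 ± 3.98 CPM in those labelled wild type. Bbs10, the other chaperonin-like gene, averaged 17.0 ± 1.28 CPM in the libraries labelled knockout and 17.6 ± 0.477 CPM in those labelled wild type.

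Beyond the members, 64 genes of ciliary transport and its surroundings were tested, of 66 listed in 7 groups. Of these, 4 rose and 3 fell in the libraries labelled knockout by limma (10.9% called, against 16.9% of all genes). The groups did not overlap for 12 of them, and for 20.9% of all genes. None of the 5 kinesin-2 genes, whose products drive the outward trains, was called by the same 3 tools, and none reached an unadjusted p under 0.05. Kif3a averaged 99.0 ± 3.76 CPM in the libraries labelled knockout and 96.5 ± 2.84 CPM in those labelled wild type. Kif17 averaged 458 ± 22.5 CPM in the libraries labelled knockout and 479.7 ± 13.8 CPM in those labelled wild type. None of the 5 genes of the CPLANE complex, which helps IFT-A trains assemble at the base of the cilium, was called by any of the 3 tools. An unadjusted p under 0.05 was found for 1 of the 5, against 30.2% of all genes. Of 8 ciliary transcription factors none was called by limma or edgeR, while DESeq2 called 1 (Rfx1, at 174 ± 17.4 CPM in the libraries labelled knockout and 152 ± 9.77 CPM in those labelled wild type) and 1 had an unadjusted p under 0.05.

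Dync2i1, an intermediate chain of dynein-2 (named Wdr60 in the annotation), was one of the 4 that rose. It stood at 133, 125, 126 and 131 CPM in the libraries labelled knockout, against 105, 102, 107 and 93.5 CPM in those labelled wild type. The groups did not overlap, with a difference of 0.34 ± 0.05 (log2, ± SE; limma adjusted p = 0.00050). The other intermediate chain, Dync2i2 (named Wdr34), averaged 60.7 ± 3.46 CPM in the libraries labelled knockout and 54.7 ± 2.55 CPM in those labelled wild type, without passing the test (limma adjusted p = 0.090). Among the light chains, Dynlt1b, which belongs to a family with close copies and is uncertain for that reason, stood at 19.2, 1.06, 1.03 and 1.57 CPM in the libraries labelled knockout, against 133, 228, 219.6 and 122 CPM in those labelled wild type. Of the 9 other dynein-2 subunits listed, Dync2i1 and Dynlt1b were the 2 called (22.2%, against 16.9% of all genes).

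Of 13 genes for entry into the cilium and for cargo, 3 rose (23.1%). Over all genes, 16.9% were called in either direction and 8.62% higher. Rabl2, a small GTPase that binds the IFT-B complex and is needed for the sperm tail in mice, stood at 75.1, 77.0, 77.5 and 75.1 CPM in the libraries labelled knockout, against 62.2, 67.0, 59.4 and 61.2 CPM in those labelled wild type. The groups were well apart (log2 fold change 0.29, SE 0.05, limma adjusted p = 0.0016). Arl3, a GTPase that releases lipid-bound cargo in cilia, averaged 165 ± 9.28 CPM in the libraries labelled knockout and 144 ± 3.48 CPM in those labelled wild type (limma adjusted p = 0.016). Its call was lost without knockout replicate 4 and without the variance trend (adjusted p = 0.050 and 0.067). Tulp3, the adaptor by which IFT-A carries receptors into cilia, averaged 8.31 ± 1.11 CPM in the libraries labelled knockout and 5.51 ± 0.939 CPM in those labelled wild type (log2 fold change 0.56, limma adjusted p = 0.0074).

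The remaining genes called by limma fell. Invs, which lends its name to the inversin compartment of the cilium, was the 1 gene called by limma among 19 of the transition zone list, at 6.98 ± 0.587 CPM in the libraries labelled knockout and 9.80 ± 0.323 CPM in those labelled wild type (log2 fold change -0.46, limma adjusted p = 0.0022). DESeq2 also called Rpgr of that list, a GTPase regulator at the base of cilia, at 60.9 ± 5.71 CPM in the libraries labelled knockout and 52.2 ± 3.65 CPM in those labelled wild type (DESeq2 adjusted p = 0.028, limma adjusted p = 0.0505). Sdccag8, a centrosomal gene mutated in a Bardet-Biedl form in humans, was the 1 called by limma among 8 other Bardet-Biedl genes. It stood at 44.6, 47.2, 48.7 and 50.7 CPM in the libraries labelled knockout, against 67.1, 64.03, 68.1 and 65.8 CPM in those labelled wild type. Its groups were far apart (log2 fold change -0.47, SE 0.05, limma adjusted p = 4.3e-05). Mkks, a chaperonin-like partner of Bbs10 and Bbs12, averaged 2.08 ± 0.287 CPM in the libraries labelled knockout and 2.68 ± 0.248 CPM in those labelled wild type (limma adjusted p = 0.12).

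**Figure D4:**
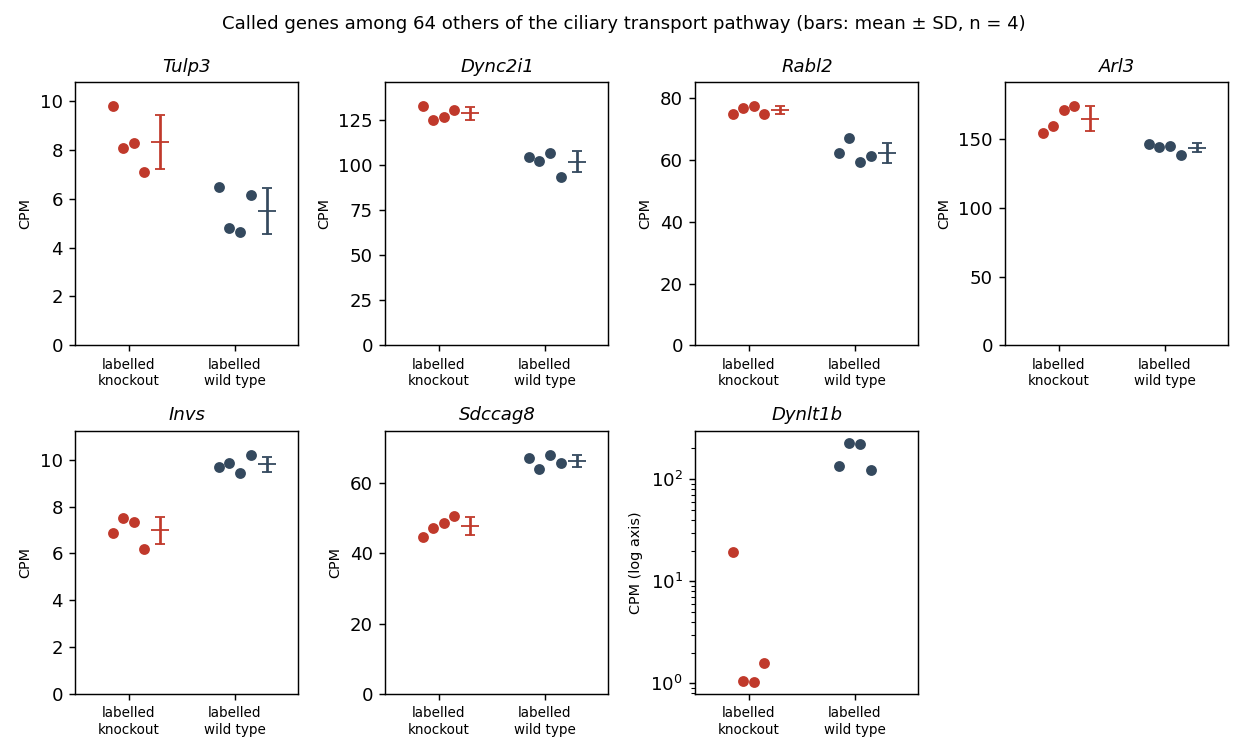
CPM in each library of the 7 called genes among the 64 other genes of ciliary transport, libraries labelled knockout on the left, with mean ± SD as bars (Dynlt1b on a log axis, without bars). Tulp3, Dync2i1, Rabl2 and Arl3 lie higher and Invs, Sdccag8 and Dynlt1b lower in the 4 libraries labelled knockout, without overlap.

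Within a label, the extreme values of the members gathered in a few libraries. Among the libraries labelled wild type, replicate 3 held the highest value of 19 of the 38 members (50%), against 25.9% of all genes tested, and replicate 4 the lowest of 20 (52.6%), against 27.5%. Among the libraries labelled knockout, replicate 2 held the highest value of 17 members (44.7%), against 26.5% of all genes, yet the lowest of 5 of the 7 IFT-A genes. All 4 genes of BBSome recruitment and assembly were highest in wild-type replicate 3 and in knockout replicate 2 of their groups. The mean of the 38 members relative to the wild-type mean was -0.02, 0.03, -0.04 and 0.02 (log2) in the libraries labelled knockout, against -0.01, -0.00019, 0.06 and -0.05 in those labelled wild type. The list means of the groups overlapped. The 10 markers of pachytene spermatocytes, on the same scale, were at -0.06, -0.02, -0.15 and -0.01 in the libraries labelled knockout, against 0.02, -0.0088, 0.06 and -0.07 in those labelled wild type. Round spermatid markers were at 0.12, 0.12, -0.04 and 0.0026 under the knockout label, against 0.05, 0.04, -0.08 and -0.0099 under the wild-type label. Elongating spermatid markers were at -0.17, -0.05, 0.03 and 0.10 under the knockout label, against 0.02, 0.03, -0.04 and -0.02 under the wild-type label. Wild-type replicate 3 was thus the highest of its label for pachytene markers and the lowest for round and for elongating spermatid markers. The part of these cells in the members' values was not tested.

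Of 8 Leydig cell markers 4 fell and none rose (50% called), and of 6 peritubular myoid markers 4 fell and none rose (66.7% called). Over all genes tested, limma called 16.9% in either direction and 8.32% lower. Leydig markers summed to 702 to 1102 CPM in the libraries labelled knockout and 1137 to 1344 CPM in those labelled wild type, without overlap. Star averaged 47.4 CPM in the libraries labelled knockout and 116 CPM in those labelled wild type, and Lhcgr 6.97 and 12.6 CPM. Insl3, the highest of these markers, averaged 401 CPM in the libraries labelled knockout and 434 CPM in those labelled wild type. The groups overlapped for Insl3, Hsd3b6, Hsd17b3 and Nr5a1, and Hsd17b3 averaged 22.3 CPM under each label. The myoid markers, Myl9 and Acta2 the highest among them, summed to 74.1 to 100.2 CPM in the libraries labelled knockout and 109.8 to 134 CPM in those labelled wild type. Of the 10 markers each of round and of elongating spermatids limma, edgeR and DESeq2 called none. Of these, 1 round and 2 elongating spermatid markers had an unadjusted p under 0.05, against 30.2% of all genes. Of 10 markers each, 2 of pachytene spermatocytes, 2 of spermatogonia and 2 of Sertoli cells fell by limma and none rose. That is 20% of each list, against 16.9% of all genes called in either direction and 8.32% called lower. Of the Sertoli markers edgeR called 1. Of 7 macrophage markers limma, edgeR and DESeq2 called none, and 1 had an unadjusted p under 0.05, against 30.2% of all genes. Round spermatid markers summed to 3505 to 3601 CPM in the libraries labelled knockout and 3323 to 3549 CPM in those labelled wild type. Among markers of multiciliated and duct epithelium, which also use these genes, 6 of 14 listed were tested and 1 fell (16.7% called). This was Krt19, at 0.688 CPM in the libraries labelled knockout and 1.30 CPM in those labelled wild type. Foxj1, a factor of motile cilia that testis also expresses, averaged 87.6 CPM in the libraries labelled knockout and 92.5 CPM in those labelled wild type. The part of any of these cells in the rise of Ttc21a was not tested.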

How the data were processed

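Testis RNA (TRIzol, DNase) went into TruSeq libraries, per the labels' protocols. Trimmomatic, Subread, featureCounts and the build GRCm39 are named in the submitters' processing notes, and the sources used here do not give versions, annotation release, strand setting or the handling of multi-mapping reads. The authors deposited a signal per gene, named CPM, for 24988 genes in 8 libraries; columns named control were taken as wild type and kpn as knockout, with their numbers. Column sums ran from 990244 to 1025489. Dividing each column by its smallest value above 0 gave whole reads, to a tolerance of 0.01, for 100% of values. Replicate pairs differed beyond sampling noise (chi-square per degree of freedom 4.63 to 11.7).

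The test was limma 3.58.1 in R 4.3.3 (trended variance, log2(CPM + 0.5)) over the 22027 genes that averaged 0.5 CPM or more, with adjustment over all of them. On recovered reads, edgeR 4.0.16 called 3694 genes and DESeq2 1.42.0 called 3977. The design had assumed plain CPM, and its test was kept. Symbols (24890 identifiers), positions and exon lengths came from GENCODE M21 on GRCm38, another build than the authors' one, and were not converted. Current names of 5 listed genes were matched to older ones from general knowledge. The fits were tested on simulated data. Named were called members, those nearest to a call or extreme in level within their complex, and called pathway genes; further genes were named after their values were seen. Of the members, 8 share exon bases with other annotated genes (55 to 929, summed over those genes). The members and lists were chosen with earlier results of these data known.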

Additional observations from a re-analysis of the deposited data

Results flagged for a closer look

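Among 92 groups of 4 libraries checked for a library far from the others (the members, the called pathway genes and Kpna2, in each label), 4 had one, and chance flags about 1 in 20. Ift52, an IFT-B subunit, stood at 46.1 CPM in knockout replicate 1, against 50.6 to 51.1 CPM in the other 3 of that label. Dynlt1b stood at 19.2 CPM in knockout replicate 1, against 1.03 to 1.57 CPM in the other 3. Traf3ip1 stood at 83.3 CPM in wild-type replicate 4, against 93.8 to 94.6 CPM in the other 3. Hspb11 stood at 11.9 CPM in wild-type replicate 3, against 10.1 to 10.3 CPM in the other 3.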

How the results depend on the processing

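Of 38 members, 19 kept their direction and their side of the threshold in all 19 alternatives, Ttc21a among them. The count of called members stayed at 1 in every alternative except when 1 library was left out, where it ran from 1 to 2: the added member was Ift22 without knockout replicate 1 (adjusted p = 0.019), Traf3ip1 without knockout replicate 2 (0.039) and Bbs5 without knockout replicate 3 (0.034). With the replicate number as a block, the count was again 1 member, 3446 genes were called in all, and no call of a member changed; the numbers did not pair the samples (correlation of same-numbered deviations -0.031 to 0.039). The Kpna2 difference kept its sign and call throughout, at 0.38 to 0.55 when 1 library was left out. Sign changes were found for 16 members with log2 fold changes near 0, none of them called. They were, by log2 fold change, Bbs2 (0.0024), Ift80 (0.0030), Lztfl1 (0.0024), Ttc30a1 (0.0052) and Wdr19 (0.0024) with median ratio scaling, Cluap1 (-0.022), Ift81 (-0.011) and Lztfl1 (0.0089) with library weights, Dync2h1 (-0.0059), Hspb11 (0.023), Ift81 (-0.0043) and Ttc30a1 (0.0078) with quantile normalization, Ttc30a1 (8.9e-05) with a pseudocount of 2 CPM, Ttc30a1 (0.0028) in edgeR and Ttc30a1 (0.0028) in DESeq2. With 1 library left out, the values ran for Arl6 -0.12 to 0.0086, Bbip1 -0.077 to 0.026, Bbs10 -0.076 to 0.0041, Bbs2 -0.013 to 0.011, Cluap1 -0.044 to 0.057, Dync2h1 -0.0039 to 0.054, Hspb11 -0.091 to 0.046, Ift122 -0.00035 to 0.066, Ift172 -0.043 to 0.0036, Ift20 -0.026 to 0.052, Ift43 -0.014 to 0.062, Ift80 -0.013 to 0.017, Ift81 -0.033 to 0.042, Lztfl1 -0.044 to 0.055, Ttc30a1 -0.053 to 0.066 and Wdr19 -0.033 to 0.035. The cause was not tested. No scaling moved the median of all genes by 0.1 or more. Bbs12 rested on as few as 105 reads in a library labelled knockout.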
